A study of Mus musculus with 20 samples.

Results

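CCT (also called TRiC) is the chaperonin of the eukaryotic cytosol, a barrel of stacked rings in which every ring is assembled from 8 different but related subunits. It encloses unfolded proteins and uses ATP to release them folded. Actin and tubulin, which cleaving embryos need for their cell cortex and spindles, are its best known clients. Prefoldin delivers these clients to CCT, and phosducin-like proteins act with CCT on some of them. In budding yeast the subunits on one side of the ring (the Cct4, Cct5, Cct2 and Tcp1 homologues) bind ATP more tightly than those on the other side (the Cct3, Cct6, Cct7 and Cct8 homologues). The transcripts of all 8 mouse subunit genes were followed here through preimplantation development: Tcp1 (the alpha subunit), Cct2 (beta), Cct3 (gamma), Cct4 (delta), Cct5 (epsilon), Cct6a (zeta), Cct7 (eta) and Cct8 (theta). Every probe set annotated to 1 of these symbols was taken. This gave 23 probe sets for 8 of the 12393 genes that the array covers with a probe set of a single symbol.

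Mouse oocytes, 1-cell embryos, 2-cell embryos, 8-cell embryos and blastocysts were measured on 4 Affymetrix MOE430A arrays each, 20 in all. The total RNA of every sample had gone through 2 rounds of in vitro transcription (IVT) amplification. The labels give no genotype, strain, treatment, maternal age or number of pooled oocytes or embryos, and the 5 groups share everything the labels state except stage. They do not say whether arrays of a stage came from separate collections, so p-values measure only the spread between these arrays, which may be technical. In such bulk samples, fewer cells of a type and less RNA per cell cannot be told apart.

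Within a stage, array pairs correlated at 0.931 to 0.971, and between stages at 0.435 to 0.899. Summed marker genes went with the stage labels. The summed intensity of 6 oocyte genes lay at 22544 to 25918 in oocytes and at 146 to 206 in blastocysts. The sum of 3 genes of the 2-cell stage reached 2295 to 3983 in 2-cell embryos. That of 5 trophectoderm genes reached 10382 to 12681 in blastocysts, where Krt8 averaged 4372 and Krt18 5346. Some single genes went otherwise. Tfap2c of the trophectoderm list averaged 854 in 8-cell embryos and 439.5 in blastocysts. In the oocyte list, Gdf9 averaged 7590 in oocytes and 9208 in 1-cell embryos, and Bmp15 averaged 746 and 1369. The summed signal of 8 cumulus and granulosa genes was 136 to 457 over all arrays. The summed signal of the oviduct and blood list was 283 to 821 in 2-cell embryos and up to 3174 in 8-cell embryos, against 68.3 to 165 in oocytes, 1-cell embryos and blastocysts. Its oviduct gene Ovgp1 read 764.6, 614, 381 and 219.6 on the 2-cell arrays and 193.5, 3105.4, 113 and 46.5 on the 8-cell arrays, against 18.9 to 112 in the other stages. The 18S ribosomal RNA control read 12665 ± 1877 in 1-cell embryos and 196 ± 57.6 in oocytes (SD, n = 4 each). It averaged 639 in 2-cell embryos, 851 in 8-cell embryos and 535 in blastocysts, so the 1-cell arrays stood far above those of every other stage. The part of Ovgp1 and 18S signal in the results below was not tested.

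Of the 23 probe sets, 21 passed the filter on low signal (above 33 units on at least 4 arrays), and these covered all 8 genes. Probe set 1415868_at of Cct4 and probe set 1436973_at of Cct8 did not pass and were not tested. Each gene is described by its brightest tested probe set. Levels are intensities in the arbitrary units of the deposited table, so a level is set only against the same probe set at another stage. Changes are differences of log2(intensity + 12.15) between stage means, the later stage minus the earlier, with the standard error (SE) of the limma fit. Fold differences are on this same scale and can differ from ratios of the printed mean intensities. A change was called where the Benjamini-Hochberg adjusted p over all 17193 tested probe sets was below 0.05. Between stages that do not follow each other, 45.4% of all genes were called between 2-cell embryos and oocytes, 60.3% between 8-cell embryos and oocytes, 60.5% between 8-cell and 1-cell embryos, and 57.5% between blastocysts and 2-cell embryos.

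Among the subunits that bind ATP tightly in yeast, Cct4 (probe set 1433447_x_at) had its trough in 1-cell embryos. It read 573, 634, 427 and 839.7 in oocytes, 176, 131, 133 and 117 in 1-cell embryos, 634, 893, 1219.6 and 945 in 2-cell embryos, 3869, 3016, 3989 and 3547 in 8-cell embryos, and 3344, 3429, 2359.7 and 2761 in blastocysts. Every 1-cell array lay below every other array, and every 8-cell and blastocyst array lay above all earlier ones. In the order of levels, 1-cell embryos, oocytes, 2-cell embryos and blastocysts each differed from the next, and blastocysts and 8-cell embryos were not separated by the test (adjusted p = 0.246). Cct5 (1417258_at) had another course, high at both ends of the series. It read 2412, 2552, 2349.8 and 2777 in oocytes, 215, 352, 466 and 398 in 1-cell embryos, 372, 439, 641 and 374 in 2-cell embryos, 2090.2, 2248, 2157 and 2436 in 8-cell embryos, and 2546, 2546, 2715 and 2170 in blastocysts. The 1-cell and 2-cell arrays overlapped each other and lay far below the oocyte, 8-cell and blastocyst arrays, which overlapped among themselves. The only neighbours called different in its order of levels were 2-cell and 8-cell embryos (adjusted p = 6.28e-11).

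Cct2 (1433535_x_at) read 1237, 1533, 1483 and 1821 in oocytes, 496, 466, 721 and 858 in 1-cell embryos, 928, 954, 1389 and 1066 in 2-cell embryos, 3399, 3203, 3557 and 3471 in 8-cell embryos, and 4298, 4276, 5533 and 3764 in blastocysts. Its order of levels ran from 1-cell through 2-cell embryos and oocytes to 8-cell embryos, with each step called, and the blastocyst arrays lay above the 8-cell arrays without a call (adjusted p = 0.0951). Tcp1 (1448122_at), the founding member of the family, had oocyte arrays at 1518, 1628, 1636 and 1709, 1-cell arrays at 339, 351, 522 and 449.8, 2-cell arrays at 1111, 1350.1, 2366 and 2065, 8-cell arrays at 2482, 2471, 2511 and 3150.3, and blastocyst arrays at 2843, 3240.1, 3449 and 2839.7. The 1-cell arrays stood below all others. The oocyte arrays fell inside the spread of the 2-cell arrays, and the test did not separate oocytes from 2-cell embryos (adjusted p = 0.942).

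On the side of the ring that binds ATP weakly in yeast, Cct3 (1448178_a_at) read 2538, 2554, 2393 and 2918 in oocytes, 1305, 1140.4, 1229.6 and 1420.4 in 1-cell embryos, 3134, 3002, 3418 and 3038 in 2-cell embryos, 4649, 4211, 4407 and 5137 in 8-cell embryos, and 5446, 5499, 5779.8 and 3979.7 in blastocysts. Its order was that of Tcp1, with the lowest level in 1-cell embryos, with no call between oocytes and 2-cell embryos (adjusted p = 0.120) or between 8-cell embryos and blastocysts (adjusted p = 0.371). Cct6a (1423517_at) covered the widest span of the 8 genes. It read 238, 136, 163 and 145 in oocytes, 74.5, 98.7, 69.1 and 90.6 in 1-cell embryos, 540.4, 743, 993 and 763 in 2-cell embryos, 2350.1, 1706, 2264 and 1905 in 8-cell embryos, and 2387, 2427, 2722 and 2584 in blastocysts. No 2 stages overlapped, and each step from 1-cell embryos through oocytes and 2-cell embryos to 8-cell embryos was called, while the step to blastocysts was not (adjusted p = 0.175).

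The remaining genes, Cct7 and Cct8, showed no drop in 1-cell embryos. Cct7 (1415816_at) read 424, 306, 294 and 371 in oocytes, 376, 408, 395 and 442 in 1-cell embryos, 294, 385, 413 and 473 in 2-cell embryos, 2845, 2731, 2223 and 2604 in 8-cell embryos, and 2499, 3125, 2561 and 2535 in blastocysts. The first 3 stages overlapped with no call among them, as did the last 2, and the only called step lay between these sets (adjusted p = 2.47e-14 for 8-cell against 1-cell embryos). Cct8 (1415785_a_at) read 573, 831, 759 and 864 in oocytes, 669.9, 713, 961 and 732 in 1-cell embryos, 480, 535, 592 and 502 in 2-cell embryos, 795, 1046, 1254 and 1539 in 8-cell embryos, and 1376, 1831, 1829 and 2048 in blastocysts. Its lowest level was in 2-cell embryos and its highest in blastocysts. No call was made between oocytes and 1-cell embryos (adjusted p = 0.939), and both overlapped the 8-cell arrays.

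**Figure D1:**
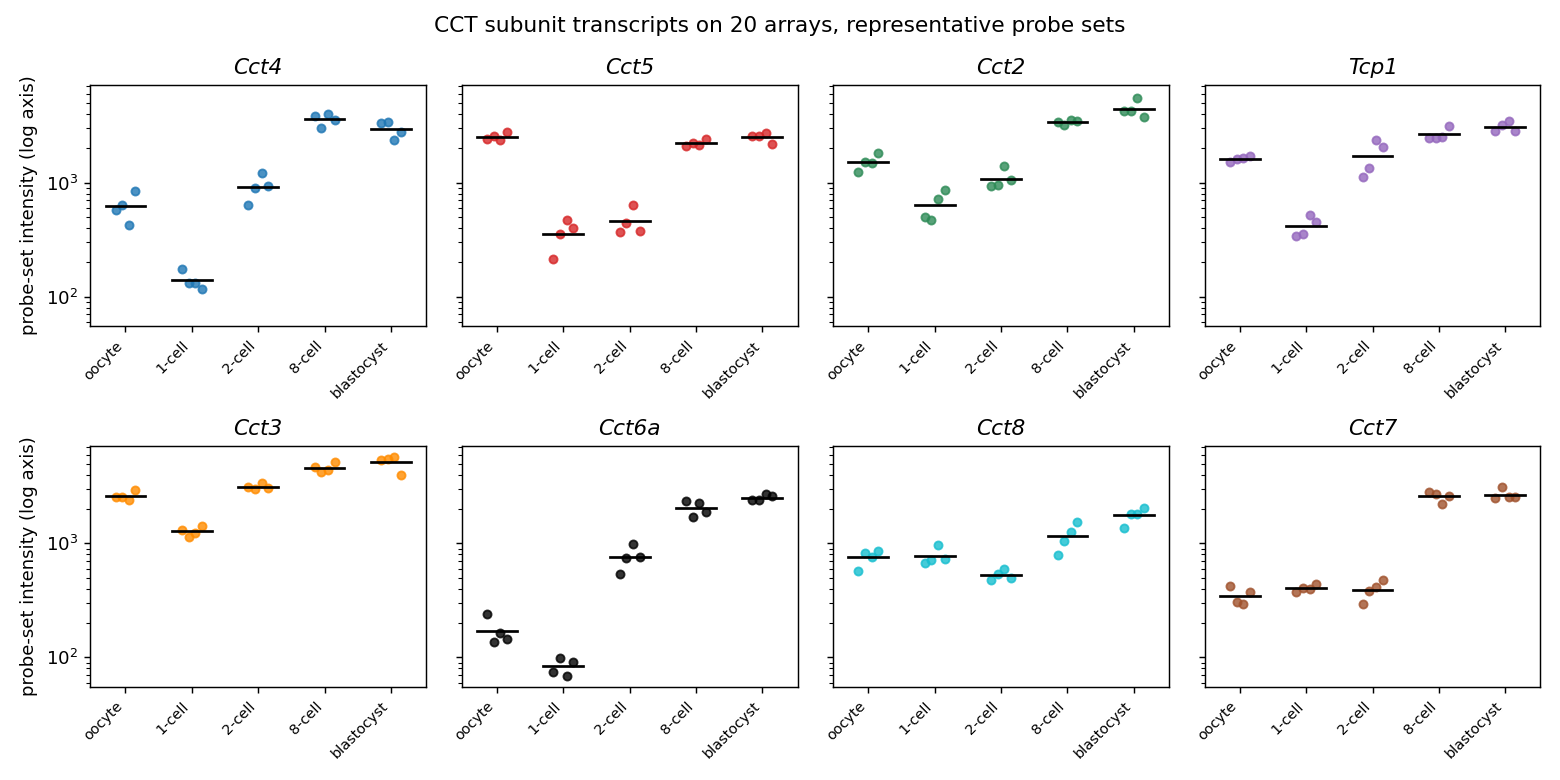
Intensity of the representative probe set of each CCT gene (vertical axis, arbitrary units, log scale) at the 5 stages (horizontal axis). Points are single arrays, 4 a stage, and bars are stage means. Cct4, Cct2, Tcp1, Cct3 and Cct6a were lowest in 1-cell embryos, Cct5 was low in both 1-cell and 2-cell embryos, and Cct7 stayed between 294 and 473 until the 2-cell stage before lying between 2223 and 3125.

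Promoter sequences of Cct5, Cct6a and Cct7 are shown because each of these genes had the largest change of the set at a stage, Cct5 in 1-cell, Cct6a in 2-cell and Cct7 in 8-cell embryos. RefSeq's table of promoters on build GRCm38.p6, from 250 bases before to 50 bases after the annotated start, held 9 entries for 7 of the genes. Cct5 lies on chr15:31590800-31601846, Cct6a on chr5:129787356-129846443 and Cct7 on chr6:85451505-85468477. The windows shown are chr15:31601797-31602096 (minus strand), chr5:129787106-129787405 (plus strand) and chr6:85451255-85451554 (plus strand). They are written 5′ to 3′ along the gene, and capitals mark matches, on either strand, to any motif searched.
Cct5: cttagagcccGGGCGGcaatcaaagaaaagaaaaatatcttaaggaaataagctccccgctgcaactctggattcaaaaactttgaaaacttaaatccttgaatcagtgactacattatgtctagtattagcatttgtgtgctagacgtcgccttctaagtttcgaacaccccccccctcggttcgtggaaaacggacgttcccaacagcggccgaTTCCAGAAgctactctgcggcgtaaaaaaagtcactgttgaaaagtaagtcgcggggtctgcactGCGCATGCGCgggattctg
Cct6a: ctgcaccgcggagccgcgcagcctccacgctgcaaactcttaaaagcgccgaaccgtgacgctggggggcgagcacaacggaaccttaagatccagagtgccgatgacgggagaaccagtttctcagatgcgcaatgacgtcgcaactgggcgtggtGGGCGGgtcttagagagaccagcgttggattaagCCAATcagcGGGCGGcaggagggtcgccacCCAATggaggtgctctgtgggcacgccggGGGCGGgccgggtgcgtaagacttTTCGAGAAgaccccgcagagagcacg
Cct7: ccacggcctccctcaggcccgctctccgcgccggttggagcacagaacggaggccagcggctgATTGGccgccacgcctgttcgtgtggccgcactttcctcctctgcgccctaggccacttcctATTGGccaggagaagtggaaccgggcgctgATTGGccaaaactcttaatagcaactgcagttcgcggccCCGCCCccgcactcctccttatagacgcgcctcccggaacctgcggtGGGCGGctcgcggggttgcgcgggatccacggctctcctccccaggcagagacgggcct
The motifs searched on both strands were the inverted heat shock pairs GAANNTTC and TTCNNGAA, the CCAAT box CCAAT, the GC box GGGCGG, the ETS site CCGGAAG, the NRF1 site GCGCATGC, the E-box CACGTG and the cAMP response element TGACGTCA. TTCNNGAA stood at bases -34 to -27 from the start in Cct5 and at 25 to 32 in Cct6a, and 8.52% of all 32851 promoters held it. GAANNTTC was found in 1 of the 2 Cct2 windows, and 7.86% of all promoters held it. The GC box was present in 8 of the 9 windows and in 35.7% of all promoters. The window without it, the second of Cct5 (chr15:31601490-31601789), held no match to any motif searched. CCAAT was present in 4 of the 9 windows, among them Cct6a and Cct7, and in 37.4% of all promoters. Matches to GCGCATGC were found only in Cct5 among these genes, at 32 to 39 and, overlapping it, at 34 to 41, against 2.71% of all promoters. CCGGAAG was found in Cct2, Cct8 and Tcp1 and in 8.86% of all promoters. No window of the 7 genes held CACGTG or TGACGTCA, which 7.15% and 1.79% of all promoters held. A match is a description of these letters and not a bound site.

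In 1-cell embryos compared with oocytes, 6 of the 8 CCT genes were lower and none was higher. Over all 10251 tested genes, 16.6% were called lower and 15.3% higher. The median change of the 8 genes was -1.15, against 0.09 over all genes. Cct5 fell most, to 358 ± 106 in 1-cell embryos, against 2523 ± 189.7 in oocytes (SD, n = 4 each), a 7.09-fold difference (log2 change -2.83 ± 0.19 SE, limma adjusted p = 3.80e-12). Cct4 fell by 2.03 ± 0.20 SE on the log2 scale (adjusted p = 5.71e-09), and Tcp1 fell by 1.95 ± 0.19 SE (adjusted p = 4.84e-09). Cct2, Cct3 and Cct6a fell less, with log2 changes of -1.27, -1.02 and -0.92. All 6 were lower on every 1-cell array than on any oocyte array, a separation that was not counted over all genes. Cct7 changed by 0.22 ± 0.16 SE (adjusted p = 0.318) and Cct8 by 0.03 ± 0.19 SE (adjusted p = 0.939), with overlapping arrays. Scaling the arrays to the added hybridization controls lowered the median of all genes by 0.86 in this comparison, and Cct7 (-0.79) and Cct8 (-1.001) were then called lower too. All 8 genes were then lower, beside 50.6% lower and 0.166% higher over all genes.

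In 2-cell embryos compared with 1-cell embryos, 5 genes were higher and 1 was lower, against 22.0% higher and 22.7% lower over all genes. This comparison and the previous one share the 1-cell arrays. Cct6a rose most, to 759.9 ± 185 in 2-cell embryos, against 83.2 ± 13.8 in 1-cell embryos (SD, n = 4 each), a 7.98-fold difference (log2 change 3.00 ± 0.18 SE, adjusted p = 1.60e-13). Cct4 rose by 2.60 ± 0.20 SE and Tcp1 by 1.98 ± 0.19 SE. Cct3 rose by 1.30 ± 0.14 SE and Cct2 by 0.79 ± 0.18 SE. The arrays of these genes were separate, which was not counted over all genes. Cct5 changed by 0.36 ± 0.19 SE (adjusted p = 0.131) and Cct7 by -0.07 ± 0.16 SE (adjusted p = 0.774), and their arrays overlapped. Cct8 fell, to 527 ± 48.7 in 2-cell embryos, against 769 ± 131 in 1-cell embryos (log2 change -0.53 ± 0.19 SE, adjusted p = 0.0219). The Cct8 call was lost without 2-cell replicate 1 (-0.48), 2-cell replicate 4 (-0.50) or 1-cell replicate 3 (-0.41), and with the hybridization control scaling (-0.32), under which Cct7 turned to 0.14. Of the Cct2 probe sets without an x or s suffix, 1416037_a_at was not called (0.24) and 1433534_a_at was called higher (0.90). Cct5 was called higher without 1-cell replicate 3 (0.50).

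In 8-cell embryos compared with 2-cell embryos, all 8 CCT genes were higher, and for each of them every 8-cell array lay above every 2-cell array. That separation of arrays was not counted over all genes. Over all genes, 22.2% were called higher and 25.7% lower, and the median change was 0.04 against 1.55 for the 8 genes. Cct7 rose most, to 2601 ± 270.4 in 8-cell embryos, against 391 ± 74.8 in 2-cell embryos (SD, n = 4 each), a 6.54-fold difference (log2 change 2.71 ± 0.16 SE, adjusted p = 6.67e-14). Cct5 rose by 2.29 ± 0.19 SE and Cct4 by 1.98 ± 0.20 SE, followed by Cct2 at 1.66, Cct6a at 1.44 and Cct8 at 1.08. The smallest called changes were those of Tcp1 (0.68 ± 0.19 SE, adjusted p = 0.00399) and Cct3 (0.54 ± 0.14 SE, adjusted p = 0.00221). Of the 6 Cct3 probe sets, 3 were called higher and 3 were not called. With the mean over the probe sets of a gene, Cct3 (0.27) lost its call. Quantile normalization left 6 genes called, with Tcp1 at 0.28 and Cct3 at -0.22, and the hybridization controls left 5, with Tcp1 at 0.15, Cct3 at 0.02 and Cct8 at 0.56. Over all genes, 26.1% were called higher with quantile normalization and 8.37% with the hybridization controls. All 8 genes remained called without each 8-cell or 2-cell array in turn, the 8-cell array with the highest Ovgp1 included. The ratio of the 3′ to the 5′ control probe set of a gene is a sign of RNA quality. For Gapdh it was 1.28 ± 0.47 in 8-cell embryos and 5.43 ± 0.60 in 2-cell embryos (SD, n = 4 each). For actin it was 3.67 ± 0.23 in 8-cell embryos and 4.63 ± 0.62 in 2-cell embryos. The part of these ratios in this result was not tested.

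In blastocysts compared with 8-cell embryos, 1 of the 8 genes was higher and none was lower, against 20% higher and 26.4% lower over all genes. Cct8 rose to 1771 ± 283 in blastocysts, against 1159 ± 316 in 8-cell embryos (SD, n = 4 each), by 0.63 ± 0.19 SE on the log2 scale (adjusted p = 0.00731), with overlapping arrays. The other 7 changes lay between -0.28 for Cct4 and 0.38 for Cct2. On their brightest tested probe sets, Cct2 and Cct6a had blastocyst arrays that all lay above their 8-cell arrays but missed the threshold. This separation was not counted over all genes. Another Cct2 probe set, 1433534_a_at, was called lower in blastocysts (-0.56). The count depended on the scaling: it was 3 with quantile normalization (Cct8, Cct2 and Cct3), 3 with centring on the array median (Cct8, Cct2 and Cct6a), and 8 with the hybridization controls, under which the median of all genes rose by 0.85 and Cct4 changed sign to 0.77. Over all genes, 20.7% were called higher with quantile normalization, 24.8% with centring on the array median and 44.4% with the hybridization controls. Centring on the array median moved the share of higher calls among all called probe sets to 63.0% from 43.4%, and the hybridization controls moved it to 95.1%. The Gapdh 3′ to 5′ ratio was 5.81 ± 1.96 in blastocysts and 1.28 ± 0.47 in 8-cell embryos. The actin ratio went the other way, at 1.99 ± 0.33 in blastocysts and 3.67 ± 0.23 in 8-cell embryos. The part of these ratios was not tested.

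From one end of the series to the other, blastocysts compared with oocytes, 7 genes were higher and none was lower, against 26.2% higher and 33.6% lower over all genes. Cct6a differed most, at 2530.1 ± 154 in blastocysts, against 171 ± 46.3 in oocytes (SD, n = 4 each), a 14.2-fold difference (log2 change 3.83 ± 0.18 SE, adjusted p = 4.52e-16). Cct7 was 7.51-fold higher (2.91 ± 0.16 SE) and Cct4 4.82-fold higher (2.27 ± 0.20 SE). Cct2 (1.55), Cct8 (1.22), Cct3 (0.98) and Tcp1 (0.92) rose less. Cct5 stood at 2494 ± 230.4 in blastocysts, against 2523 ± 189.7 in oocytes (log2 change -0.02 ± 0.19 SE, adjusted p = 0.942), and its sign changed with centring on the array median (0.06). The actin 3′ to 5′ ratio was 1.99 ± 0.33 in blastocysts and 4.74 ± 0.36 in oocytes (SD, n = 4 each). The Gapdh ratio was 5.81 ± 1.96 in blastocysts and 4.70 ± 1.26 in oocytes. The part of these ratios in these results was not tested.

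**Figure D2:**
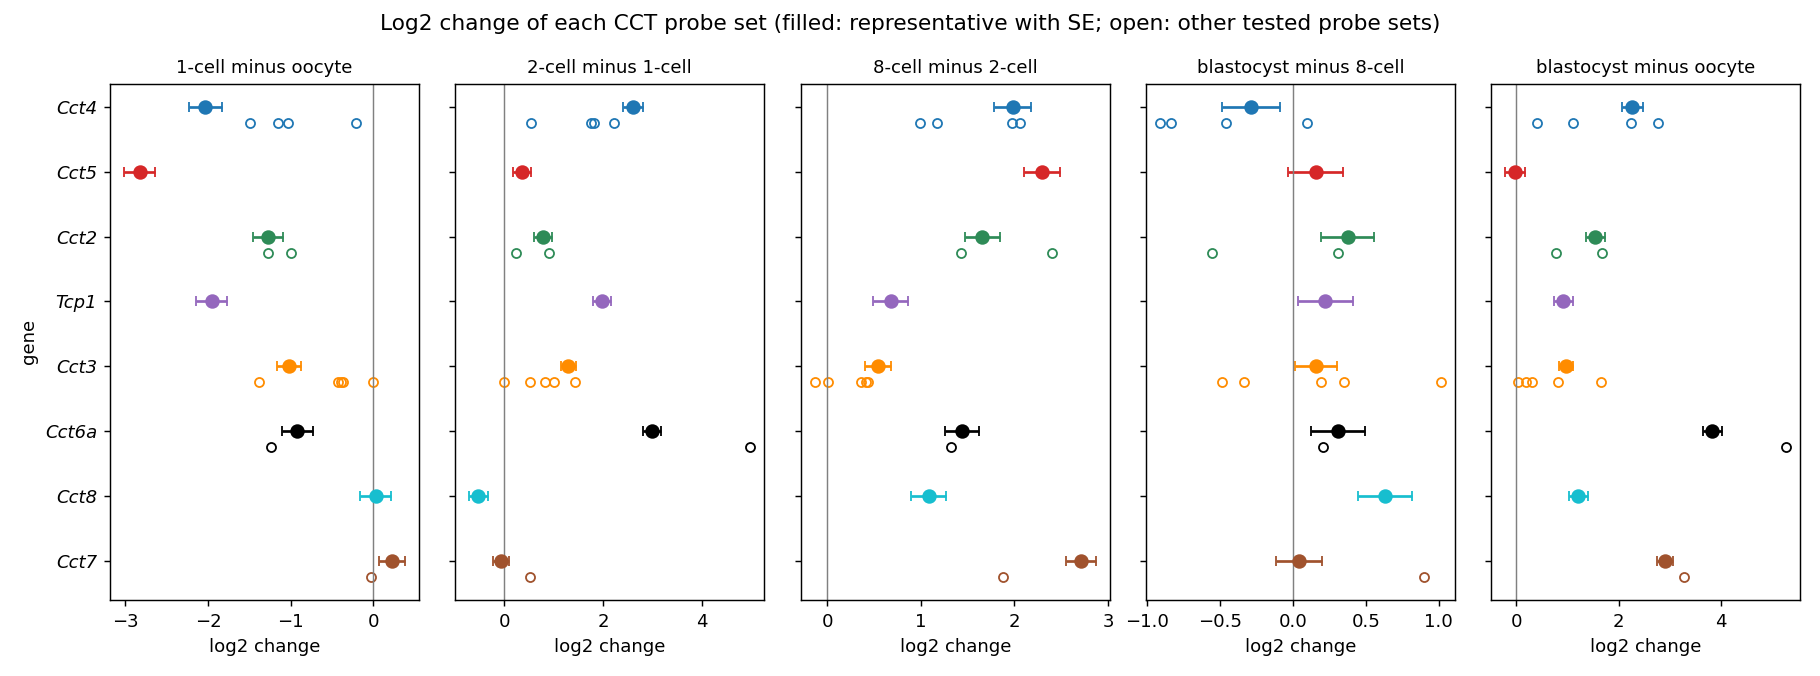
Log2 change (horizontal axes) of each CCT gene (rows) in the 5 comparisons (panels, later stage minus earlier). Filled points are representative probe sets with their SE, and open points are the other tested probe sets of the gene. The open Cct6a points belong to a probe set that read below the filter value in 1-cell embryos. Cct5 had the most negative change in 1-cell embryos (-2.83), Cct6a the most positive in 2-cell embryos (3.00) and Cct7 in 8-cell embryos (2.71).

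Genes with several probe sets allowed a check within the gene. On Affymetrix arrays an x or s suffix marks a probe set whose probes may also match other transcripts, and 10 of the 23 probe sets carried one (7 x, 3 s). Of the 21 tested, 15 were lower in 1-cell embryos than in oocytes and none was higher, 15 were higher and 1 was lower in 2-cell embryos than in 1-cell embryos, and 18 were higher in 8-cell embryos than in 2-cell embryos with none lower. Over all tested probe sets, 15.4% were lower and 16.1% higher in the first of these comparisons, 23.2% higher and 21.5% lower in the second, and 23.2% higher and 25.2% lower in the third. From 8-cell embryos to blastocysts 3 were higher and 4 lower of the 21, against 19.5% higher and 25.5% lower over all tested probe sets. The second Cct6a probe set, 1455988_a_at, read 84.1, 37, 52.3 and 47.3 in oocytes, 18.7, 11, 10 and 25 in 1-cell embryos, and 695, 799, 1149 and 876 in 2-cell embryos. Over these stages it followed the order of the brighter Cct6a probe set, and since all its 1-cell readings lay below the filter value of 33, no size is given for its changes against that stage. The second Cct7 probe set, 1415817_s_at, changed by -0.03 to the 1-cell stage, by 0.52 to the 2-cell stage, by 1.88 to the 8-cell stage and by 0.90 to the blastocyst, the last where the brighter one changed by 0.04. All of these but the first were called higher, while the brighter Cct7 probe set was called only at the step to the 8-cell stage. The 5 tested Cct4 probe sets ranged from -0.91 to 0.09 in blastocysts relative to 8-cell embryos, with 2 called lower. The 6 Cct3 probe sets ranged from -0.13 to 0.54 at the 8-cell stage, and 1 of them, 1451915_at, averaged 23.1 to 25.1 at every stage, below the filter value.

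Because the subunits act in a ring that holds all of them, each gene was also set against the mean log2 value of the other 7 on the same array, a difference that stays the same when all log2 values of an array shift together. Scaling to the hybridization controls moved these differences by at most 0.07, and quantile normalization, which moves genes unequally, by up to 0.49. In 1-cell embryos relative to oocytes, Cct5 fell by 1.83 more than the others, and Cct7 (1.65) and Cct8 (1.43) changed in the other direction. In 2-cell embryos relative to 1-cell embryos, Cct6a (2.08) and Cct4 (1.63) gained on the others, and Cct8 (-1.95) and Cct7 (-1.42) lost. In 8-cell embryos relative to 2-cell embryos, Cct7 (1.33) and Cct5 (0.85) gained, and Cct3 (-1.15, or -1.64 with quantile normalization) and Tcp1 (-0.995) lost. From 8-cell embryos to blastocysts the differences ran from -0.56 for Cct4 to 0.49 for Cct8. In an exact two-sided permutation test of 4 against 4 arrays, 22 of the 40 gene and comparison pairs reached the smallest possible p of 0.0286. By comparison these were 5, 6, 5, 1 and 5 of the 8 genes in the order given above, ending with blastocysts relative to oocytes. Their Benjamini-Hochberg adjusted p over the 40 tests was 0.0519, so none passed 0.05. At the smallest possible p, the adjusted value depends on how many pairs reach it and not on the size of a difference. The test therefore cannot decide for a single gene whether it changed unequally. With every gene centred on its own mean, the SD over the 8 genes was 0.85 in oocytes, 0.82 in 1-cell embryos, 0.63 in 2-cell embryos, 0.59 in 8-cell embryos and 0.46 in blastocysts, and the genes lay closest together on this scale in blastocysts. That decrease is a description of these stage means and was not tested.

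**Figure D3:**
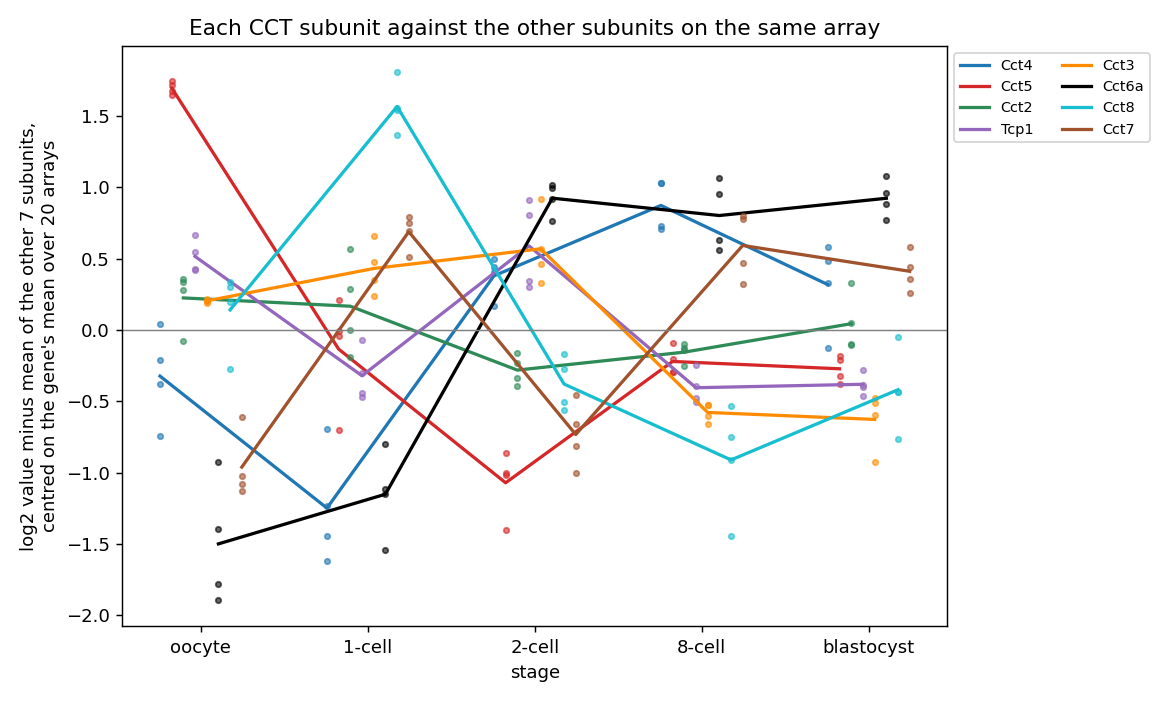
Log2 value of each CCT gene minus the mean of the other 7 genes on the same array, centred on the gene's mean over the 20 arrays (vertical axis), by stage (horizontal axis). Points are arrays and lines join stage means. Cct5 moved from the top of the set in oocytes to the bottom in 2-cell embryos, Cct8 stood highest in 1-cell embryos, and Cct6a stood lowest in oocytes and near the top from the 2-cell stage on.

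The mean centred profile of the 8 genes was -0.39 in oocytes, -1.61 in 1-cell embryos, -0.43 in 2-cell embryos, 1.12 in 8-cell embryos and 1.32 in blastocysts. Among 5573 genes of above-median signal, Mrpl15, a protein of the mitochondrial ribosome, was nearest to it, with a root mean square difference of 0.0983 over the 5 stage means. Cct2 came next at 0.168. The other near genes were Fbxo22 (0.191), Tbrg1 (0.197), Lrrc59 (0.201), Macf1 (0.213), Ufc1 (0.214), Atp5c1, a subunit of mitochondrial ATP synthase (0.218), the ribosomal protein gene Rps14 (0.220), Rcc2 (0.225) and Rpl4, also of the ribosome (0.228). Other subunits were farther from their own average than many of the 5573 genes, and nearer CCT subunits are part of the following counts. Nearer than Tcp1 (0.397) were 75 genes, and 132 were nearer than Cct3 (0.443). The count was 398 for Cct7 (0.614), 452 for Cct4 (0.640), 723 for Cct8 (0.746), 882 for Cct5 (0.800) and 1418 for Cct6a (0.953). Likeness of 5 stage means describes the profile only.

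Partners that act with CCT moved in both directions. The counts of the short lists below stand beside the shares over all genes given with each comparison above, and many lie near them. The hybridization control scaling changed those shares to 0.166% higher and 50.6% lower in 1-cell embryos relative to oocytes, 20.9% and 12.7% in 2-cell relative to 1-cell embryos, 8.37% and 31.5% in 8-cell relative to 2-cell embryos, and 44.4% and 2.19% in blastocysts relative to 8-cell embryos. Prefoldin is a complex of 6 different subunits, of which 5 were tested. In 1-cell embryos relative to oocytes, 1 was higher and 2 were lower, Pfdn6 with a log2 change of -2.60 and Vbp1 with -1.36. With the hybridization controls this became 0 higher and 3 lower, and the higher one, Pfdn2, turned to -0.15. In 2-cell embryos relative to 1-cell embryos, 2 were higher and 3 lower: Pfdn6 rose to 604 ± 171 in 2-cell embryos, against 77.6 ± 17.0 in 1-cell embryos (2.76 ± 0.19 SE), and Pfdn1 fell to 101 ± 32.6, against 715 ± 54.4 (-2.73 ± 0.27 SE). The hybridization controls left 2 higher and 1 lower there. In 8-cell embryos 3 were higher and none was lower than in 2-cell embryos, Pfdn6 by 1.25, although the hybridization controls left 1 of these 3 calls. In blastocysts relative to 8-cell embryos 1 was higher and 1 lower, the lower being Pfdn6 (-0.66), which turned to 0.39 with the hybridization controls. Of the 3 tested phosducin-like genes, Pdcl3 and Txndc9 fell in 1-cell embryos (-0.74 and -0.75) and again in 2-cell embryos (-1.45 and -0.93). Pdcl (1.60) and Pdcl3 (1.00) rose in 8-cell embryos, Pdcl3 at 0.48 without a call with the hybridization controls, and Pdcl3 rose further in blastocysts (1.25).

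Of 18 listed genes of actins, tubulins and their relatives, 15 were tested. In 1-cell embryos relative to oocytes 9 were lower and 3 higher, and Tuba4a, an alpha tubulin, fell to 845.5 ± 145 in 1-cell embryos, against 5406 ± 335 in oocytes (-2.67 ± 0.20 SE). With the hybridization controls none was higher and 11 were lower, and Actb and Tubg1, called higher on the deposited scale, turned to -0.0153 and -0.28. In 2-cell embryos 2 were higher and 4 lower than in 1-cell embryos, counts near the shares over all genes (22.0% higher and 22.7% lower), with Tuba1a at 2.23 and Tubb3 at -2.68. In 8-cell embryos, where all CCT genes rose on the deposited scale, 2 of these genes were higher and 5 lower than in 2-cell embryos. The 2 that rose were the cytoplasmic actins: Actb reached 3858 ± 1370 in 8-cell embryos, against 833 ± 141 in 2-cell embryos (2.15 ± 0.19 SE), and Actg1 reached 3107 ± 447, against 426 ± 78.5 (2.84 ± 0.18 SE). Among the beta tubulins Tubb2a fell (-2.62), and Tubb6 read 13.2 ± 1.99 in 8-cell embryos, below the filter value, against 178 ± 46.2 in 2-cell embryos. In blastocysts relative to 8-cell embryos 7 were higher and 2 lower, among the higher Actr3, a subunit of the Arp2/3 complex (2.05), and Tubb5 (1.79). With the hybridization controls 11 were higher and none was lower: of the genes called lower, Actl6a turned to 0.50 and Tubb4a, at -0.0417, was not called. The actins ended at 7956 ± 1285 for Actb in blastocysts, against 550.1 ± 97.3 in oocytes, and at 8312 ± 1933 for Actg1, against 1091 ± 185, while Tubb6 ended below oocytes (-4.34), and Tubb2b read 28.5 ± 9.64 in blastocysts, below the filter value, against 686.03 ± 157 in oocytes.

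Among 12 other reported clients, all tested, genes were called in both directions in every comparison on the deposited scale. In blastocysts relative to 8-cell embryos 3 were higher and 5 lower. With the hybridization controls 6 were higher and 1 was lower there, beside 44.4% higher and 2.19% lower over all genes. In blastocysts relative to oocytes 4 were higher and 3 lower, with the same counts under the hybridization controls. In 1-cell embryos relative to oocytes 4 were higher and 1 lower, but the hybridization controls turned this to 0 higher and 6 lower, near the 50.6% lower over all genes with that scaling. Ccne1, cyclin E1, rose to 827 ± 202 in 2-cell embryos, against 49.6 ± 18.8 in 1-cell embryos (3.79 ± 0.24 SE), and fell in blastocysts relative to 8-cell embryos (-2.13). Gnb4, a G protein beta subunit, fell in 2-cell embryos (-2.38) and in 8-cell embryos (-1.43). The mitotic activator Cdc20 rose by 0.76 in 8-cell embryos, a call lost with quantile normalization (0.10) and with the hybridization controls (0.23). Of the 6 tubulin cofactors, which assemble the tubulin dimer after CCT has folded its parts, 4 were lower and none higher in 1-cell embryos. Tbcb fell to 156 ± 35.4 in 1-cell embryos, against 1194 ± 116 in oocytes (-2.86 ± 0.20 SE), rose in 2-cell embryos (2.21), and fell again in 8-cell embryos (-1.33).

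Of the other chaperonin genes, 4 of 6 were tested. Hspd1, the mitochondrial chaperonin HSP60, rose with CCT in 8-cell embryos, to 2966 ± 578, against 745.5 ± 131 in 2-cell embryos (1.97 ± 0.19 SE). Its partner Hspe1 rose there as well (1.38) and again in blastocysts (1.41). Cct6b, the paralogue of Cct6a known from testis, averaged 153 ± 41.0 in blastocysts, against 21.4 ± 14.7 in oocytes, a mean below the filter value, so that no size is given for the difference. The heat shock factors Hsf1 and Hsf2 were not tested.

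**Figure D4:**
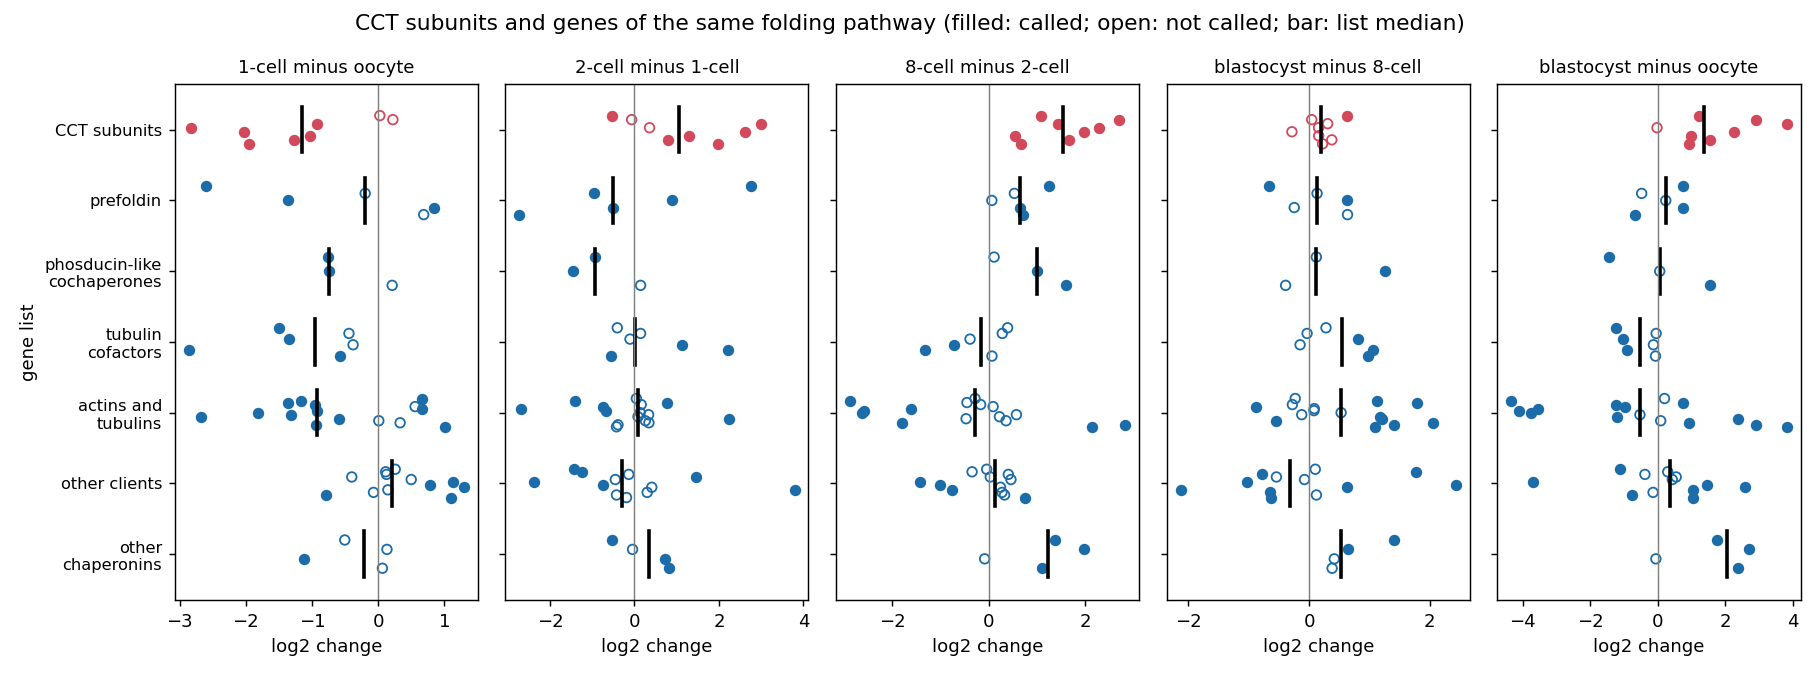
Log2 change (horizontal axes) of the CCT genes and of the pathway lists (rows) in the 5 comparisons (panels). Each point is a gene, filled where called, and black bars are list medians. In 8-cell embryos relative to 2-cell embryos the CCT genes lay between 0.54 and 2.71, and the 15 actin and tubulin genes lay on both sides of 0 with a median of -0.28.

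The deposited intensities share a common scale per array, and the choice of that scale moves all genes together. On the deposited scale, the CCT median minus the median of all genes was -1.24 in 1-cell embryos relative to oocytes, 1.11 in 2-cell relative to 1-cell embryos, 1.51 in 8-cell relative to 2-cell embryos, 0.41 in blastocysts relative to 8-cell embryos and 1.58 in blastocysts relative to oocytes. With the hybridization controls the same differences were -1.41, 1.14, 1.40, 0.62 and 1.56. The mean log2 signal of those controls was 9.49, 10.5, 10.3, 10.9 and 9.79 from oocytes to blastocysts. Centring on the array median leaves this difference as it is by construction, and the hybridization controls shift an array nearly as a whole. Quantile normalization, which does not, gave -1.41, 1.42, 1.16, 0.52 and 1.45. Among all called probe sets, the share called higher was 51.1% on the deposited scale and 0.605% with the hybridization controls in 1-cell embryos relative to oocytes. The same shares were 51.9% and 65.1% in 2-cell relative to 1-cell embryos, 48.0% and 22.9% in 8-cell relative to 2-cell embryos, and 48.1% and 37.5% in blastocysts relative to oocytes.

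**Figure D5:**
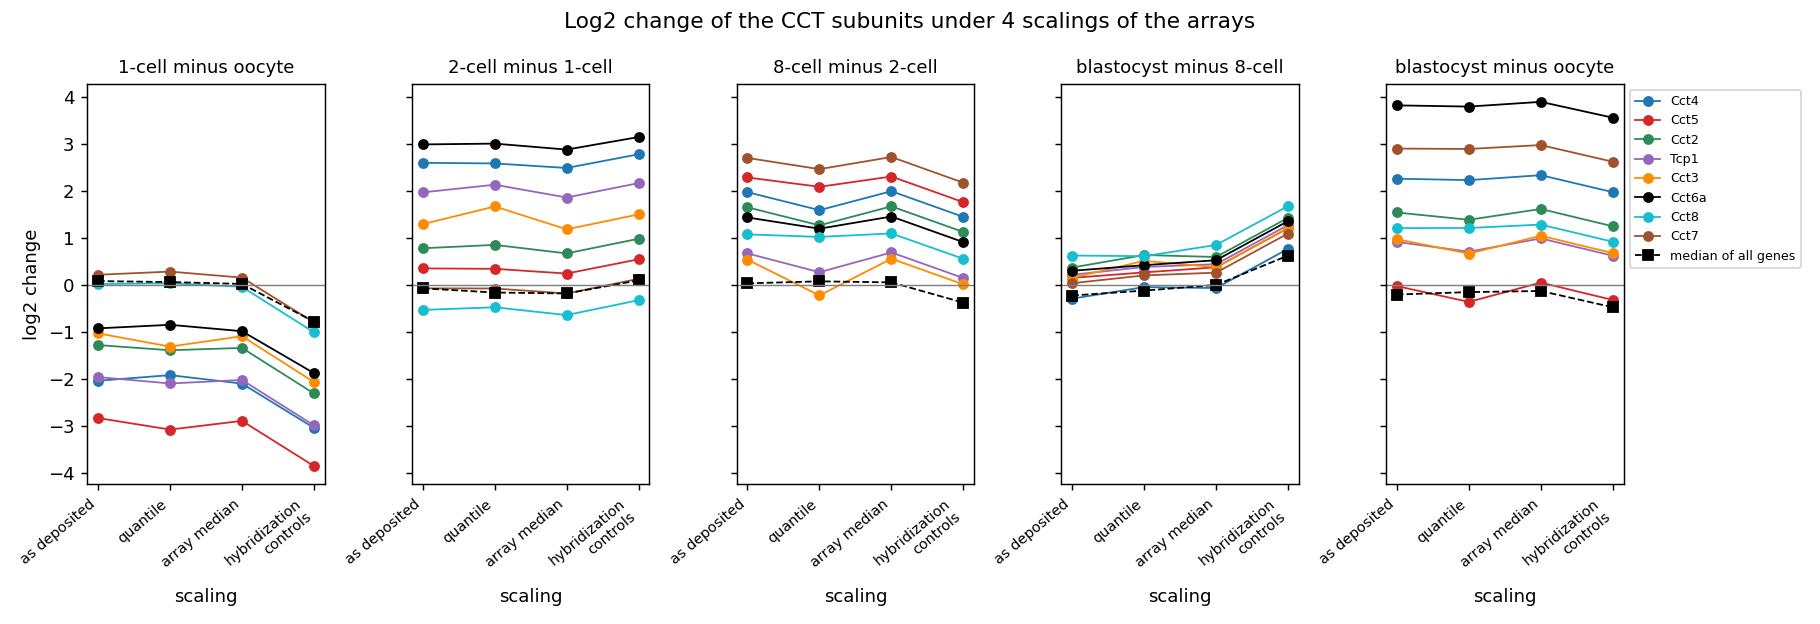
Log2 change (vertical axis) of the 8 CCT genes (coloured points) and the median of all tested genes (black squares) under 4 scalings of the arrays (horizontal axes), in the 5 comparisons (panels). With the hybridization controls all genes moved down in 1-cell embryos relative to oocytes and up in blastocysts relative to 8-cell embryos, and the CCT genes moved with them.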

How the data were processed

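Intensities were the values the authors deposited in their table of processed probe-set signals, on a linear scale. Per the labels, total RNA went through 2 rounds of IVT amplification. No label or header names the software or the background correction. Trimmed means over all probe sets, 150.051 to 150.078 on the 20 arrays, show a common scaling in the deposited intensities. Of 22690 probe sets, 64 controls were set aside. Gene symbols came from the platform annotation and were updated by gene identifier to RefSeq (GRCm38.p6): 20380 probe sets had 1 symbol, 691 several and 1555 none.

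The 17193 probe sets that exceeded 33 units, the 40th percentile of all values, on 4 or more arrays were tested as log2(intensity + 12.15), where 12.15 is the pooled median of 48.6 divided by 4. A fold change on this scale understates the change of low genes. One limma fit (3.58.1, R 4.3.3) of the 5 stages with an intensity trend and 15 residual degrees of freedom gave every contrast, and p-values were adjusted by Benjamini-Hochberg within a comparison. The script was tested on simulated data. Counts over all genes used the brightest tested probe set of each of 10251 genes.

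The members and the lists of partners and markers were chosen with earlier results of these data known. Named partners are up to 2 called in each direction with the largest change per list and comparison, and of these only some are printed. The genes of nearest profile are the 10 with the smallest root mean square difference. The number of arrays, 4 a stage, limits the precision. Each alternative changed a single choice: array scaling (by quantiles, by the array median, or by 9 hybridization control probe sets), other pseudocounts and filters, no trend, only the compared stages, a replicate block, a 1.5-fold threshold, the mean over the probe sets of a gene, leaving out each array, and, chosen after seeing the data, representatives without x or s probe sets and the differences from the other 7 genes under 2 of the scalings.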

Additional observations from a re-analysis of the deposited data

Results flagged for a closer look

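Of 40 groups of 4 arrays (8 genes at 5 stages), 3 held an array whose gap to the nearest other took most of the group's range, and chance flags about 1 group in 20. Tcp1 in 8-cell embryos read 3150.3 on replicate 4, above 2471 to 2511 on the other arrays. Cct3 in blastocysts read 3979.7 on replicate 4, below 5446 to 5779.8 on the others. Cct7 in blastocysts read 3125 on replicate 2, above 2499 to 2561 on the others, and without it the Cct7 change from 8-cell embryos to blastocysts went to -0.03 with no call before or after.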

How the results depend on the processing

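Of 840 pairs of a gene change and an alternative, 794 kept both direction and call, 17 lost a call, 13 gained one and 16 changed sign, of which 3 were called. In blastocysts relative to 8-cell embryos the count of CCT genes called higher was 3 with quantile normalization, 3 with centring on the array median, 8 with the hybridization controls, 0 at the 1.5-fold threshold, and 2 with 1 lower for the mean over probe sets. In 2-cell relative to 1-cell embryos the count called lower was 0 with the hybridization controls and at the 1.5-fold threshold, and it ranged from 0 to 1 when arrays were left out. In 8-cell relative to 2-cell embryos the count called higher was 5 with the hybridization controls, 6 at the 1.5-fold threshold and 7 for the mean over probe sets. The 1.5-fold threshold also gave 5 lower in 1-cell embryos, 4 higher in 2-cell embryos, and 6 higher in blastocysts relative to oocytes. Cct3 in 8-cell embryos turned to -0.22 with quantile normalization. In 1-cell embryos relative to oocytes, Cct8 turned to -0.0345 with the array median and to -1.001 with the hybridization controls and ranged from -0.0998 to 0.0949 without single arrays, and Cct7 turned to -0.79 with the hybridization controls. In 2-cell embryos Cct7 turned to 0.14 with the hybridization controls and to 0.23 for the mean over probe sets, and ranged from -0.16 to 0.0606 without single arrays. In blastocysts relative to 8-cell embryos, Cct4 turned to 0.77 with the hybridization controls and to 0.0947 without x or s probe sets, and Cct7 ranged from -0.0327 to 0.0880 without single arrays. Cct5 in blastocysts relative to oocytes turned to 0.0567 with the array median and ranged from -0.0603 to 0.0469 without single arrays. Relative to the other 7 genes, Cct3 turned with quantile normalization to -0.0250 in 1-cell embryos relative to oocytes and to 0.16 in blastocysts relative to 8-cell embryos. The cause was not tested. The 1.5-fold threshold called 1562 probe sets against 5400 without it in 1-cell embryos relative to oocytes, 3945 against 7693 in 2-cell, 4209 against 8326 in 8-cell embryos and 2284 against 7739 in blastocysts relative to the stage before, and 6181 against 10175 in blastocysts relative to oocytes. The replicate block gave the same CCT counts in all 5 comparisons (0 higher and 6 lower, 5 and 1, 8 and 0, 1 and 0, 7 and 0), and arrays of the same number did not deviate together (r = -0.161 to 0.178 over 40 pairs, 6 above 0.1, and 5 of 20 arrays correlated best with their own number). Cct6a read 69.1 to 98.7 in 1-cell embryos, near the filter value of 33, where background limits the size of its change.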
